A study of Mus musculus with 24 samples.

Results

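The 55 DNA replication genes described here load the replicative helicase, copy the DNA, supply deoxynucleotides or switch these genes on, and all 55 had a row among the 14106 genes of the deposited RNA-seq table. They were chosen by name, from a fixed list of origin licensing, helicase, polymerase, clamp, nucleotide supply, E2F, cyclin E, fork and chromatin assembly genes, and the rule itself uses no measured value. The study removed Spt5, a transcription elongation factor that travels with RNA polymerase II, from primary mouse B lymphocytes of the spleen. Spt5-depleted cells (3 libraries) came from Supt5hFl/- Rosa26ERT2-cre/+ mice, which carry 1 floxed and 1 null allele of the gene, and WT cells (3 libraries) came from Rosa26ERT2-cre/+ mice. Both groups were cultured with IL4 and LPS, which drive resting B cells into the cell cycle, for 28 h, then received 2 uM 4-hydroxy tamoxifen (4-HT), the ligand that activates the Cre fusion, for 32 h, and were harvested at 60 h of activation. The Cre transgene and 4-HT were thus common to both groups, whereas the null allele was present in the Spt5-depleted cells alone. The labels call the cells immature in one field and mature in another, and they leave unstated how many mice each group's 3 libraries represent, so the p-values reflect library-to-library spread, some or all of which may be technical.

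DNA replication begins when the origin recognition complex, Cdc6 and Cdt1 load the ring-shaped MCM2-7 helicase onto DNA, a step called licensing. The Dbf4-dependent kinase Cdc7, Mcm10, Cdc45 and the GINS complex then turn the loaded rings into active helicases. Polymerases alpha, delta and epsilon copy the unwound strands, delta and epsilon with the sliding clamp PCNA. Many of these genes are classical targets of E2F transcription factors, which drive their expression as cells enter S phase, and activated B cells are among the fastest dividing cells of the body.

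The libraries held 17306549 to 21441575 counts in Spt5-depleted cells and 23340978 to 25649611 counts in WT cells. Supt5, the deleted gene, averaged 11.1 ± 2.26 CPM (counts divided by the library's total, scaled by edgeR's TMM factors) in Spt5-depleted cells and 170.5 ± 18.7 CPM in WT cells (SD, n = 3 each). Xist averaged 1.35 CPM in Spt5-depleted libraries and 669.3 CPM in WT libraries, and 4 Y-linked genes (Kdm5d, Uty, Eif2s3y and Ddx3y) were detected at 17.5 to 54.2 CPM in Spt5-depleted libraries and at no more than 0.0909 CPM in WT libraries. Xist and the Y-linked genes thus split with genotype, and sex and genotype cannot be told apart in these libraries. The summed level of 9 B cell markers was 13400 to 15600 CPM in Spt5-depleted libraries and 13600 to 14400 CPM in WT libraries, although Cd22 and Blnk were among the genes that fell. The 9 macrophage and monocyte markers with a row, of 12 listed, summed to 50.7 to 96.6 CPM in Spt5-depleted libraries and 46.2 to 90.8 CPM in WT libraries, with 4 of the 8 tested higher. T cell markers summed to 173 to 198 CPM in Spt5-depleted libraries and 211 to 235 CPM in WT libraries. Most of that sum was Thy1, which averaged 158.3 CPM in Spt5-depleted and 175.3 CPM in WT libraries and did not pass. Of the 10 T cell markers only Lck was called (lower), and the other 9 did not pass. The part of these other cells in the results was not tested. In bulk RNA, fewer cells of a type and less RNA per cell cannot be told apart.

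Most of the replication genes had lower mRNA levels after Spt5 depletion. Of the 55, 39 fell and 4 rose in edgeR's quasi-likelihood test at a Benjamini-Hochberg adjusted p under 0.05 over all 12024 tested genes, and 12 did not pass. The share that fell was 70.9%, beside 30.6% of all tested genes called lower, and the share that rose was 7.27%, beside 31.8% of all tested genes called higher. Among the 7860 genes with a mean level at or above that of the lowest replication gene (11.8 CPM), 33.7% were called lower and 31.3% higher. In 40 of the 55 genes every Spt5-depleted library lay below every WT library, and in 4 above, whereas 33.3% of all tested genes lay below in this way and 34.2% above. The median log2 fold change of the 55 was -0.39, within a range of -1.34 to 0.44, and that of all tested genes was 0.005. The depth behind these values was 189 to 23472 counts per gene and library, and the SE of a log2 fold change was 0.08 to 0.13. Together the 55 genes took 0.719%, 0.742% and 0.735% of all counts in the Spt5-depleted libraries and 0.911%, 0.878% and 0.931% in the WT libraries, a ratio of means of 0.807.

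**Figure D1:**
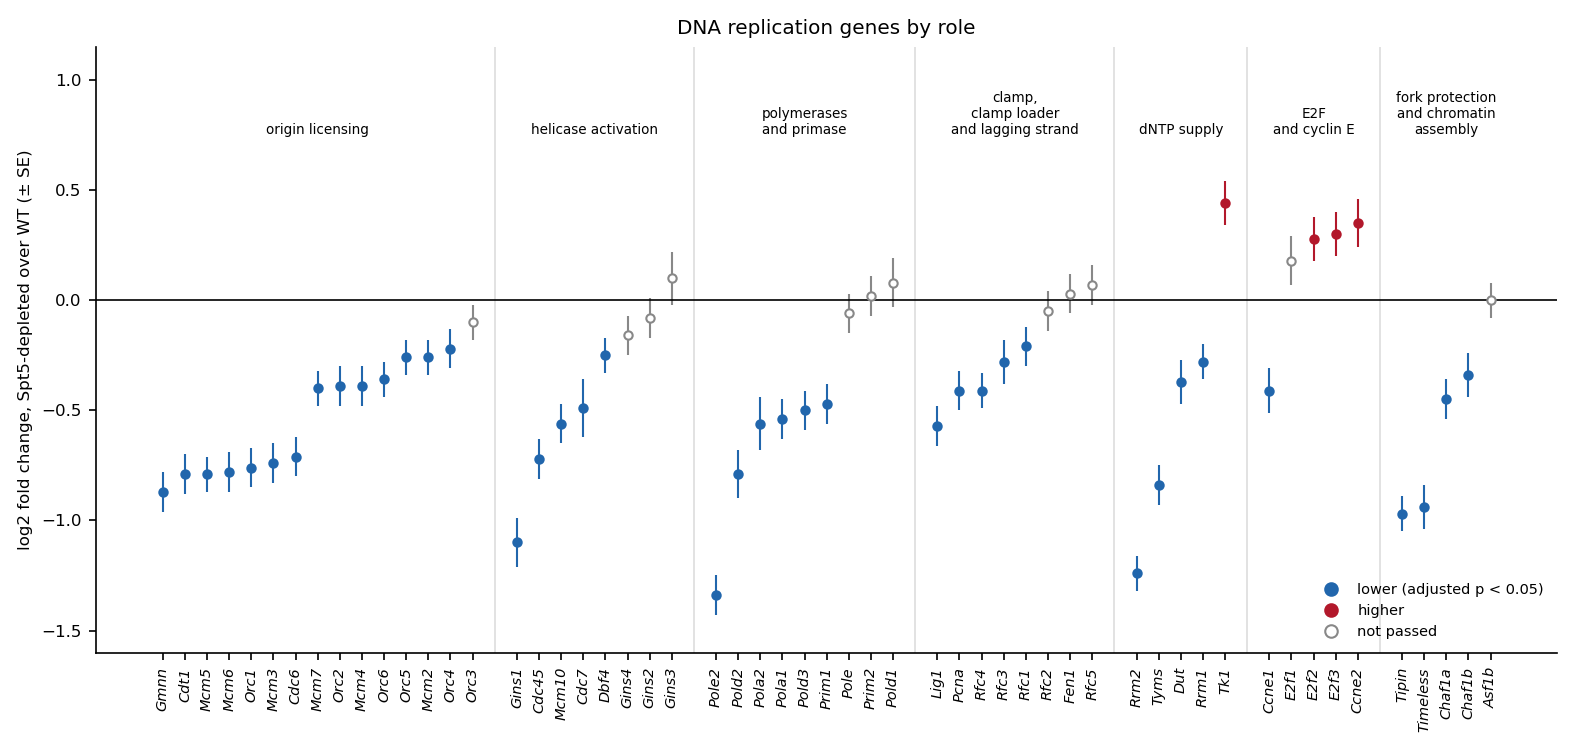
Log2 fold change (Spt5-depleted over WT, vertical axis) of each of the 55 replication genes with its SE, grouped by role; blue points fell, red points rose and open points did not pass edgeR's test. The origin licensing genes lie between -0.87 and -0.10, whereas 3 of the 5 E2F and cyclin E genes lie above 0 and passed.

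Scaling by library totals alone moved the median of all tested genes by 0.16 on the log2 scale, to 0.164. Under it 30 of the 55 genes were called lower (22.4% of all tested genes) and 6 higher (41.3% of all tested genes). The 9 that lost their call were Orc4, Orc5, Mcm2, Dbf4, Rfc1, Rfc3, Rrm1, Dut and Chaf1b, all of which had log2 fold changes between -0.37 and -0.21. The 2 further genes called higher were Rfc5 (0.23, edgeR adjusted p = 0.0359) and E2f1 (0.34, edgeR adjusted p = 0.0192). In the authors' deposited table the same 39 genes fell, the same 4 rose and the same 12 did not pass, and no log2 fold change differed from those given here by more than 0.011.

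**Figure D2:**
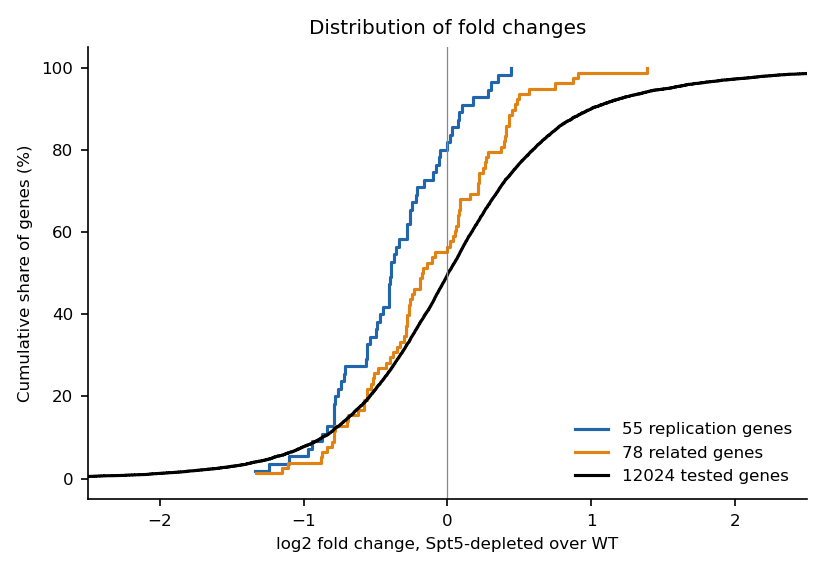
Cumulative share of genes (vertical axis, percent) against log2 fold change (Spt5-depleted over WT) for the 55 replication genes, 78 related genes of the same pathway and all 12024 tested genes. The curve of the replication genes runs to the left of the other curves over most of its range (median -0.39, against -0.18 for the related genes and 0.005 for all), yet the far left tail belongs to other genes.

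Promoter windows of 300 bases, from 250 bases before a transcript's start to 50 bases from it on, were read from RefSeq (build GRCm38.p6) to ask which of these genes carry an E2F-type motif. A window existed for 45 of the 55 genes. The letters TTTGGCGC or TTTCCCGC, on either strand, occurred in the windows of 15 of these 45 genes (33.3%) and of 486 of all 27025 RefSeq genes with a window (1.80%). The RefSeq genes were not limited to those tested here, whereas all members were tested, so these shares are of unlike sets. The 17 matches in the members' windows did not overlap each other and began between 165 bases before the start and 39 bases after it. Genes that fell held the motif in 10 of 35 cases (28.6%), genes that rose in 2 of 3, and genes that did not pass in 3 of 7. The motif was thus present in genes of all 3 kinds. By role it was held by 7 of 13 licensing, 4 of 7 polymerase, 2 of 4 E2F and cyclin E, 1 of 5 helicase activation and 1 of 7 clamp genes, and by none of the 5 nucleotide supply or 4 fork and chromatin genes with a window. A match is a run of letters and says nothing of whether the factor binds. The windows of 5 genes are shown because they hold the motif but had different calls: Mcm6 (chr1:128359656-128359955, minus strand), Cdc6 (chr11:98907901-98908200, plus strand) and Pole2 (chr12:69228141-69228440, minus strand) fell, E2f2 (chr4:136172024-136172323, plus strand) rose, and Pold1 (chr7:44548766-44549065, minus strand) did not pass. Capitals mark the motif, read 5′ to 3′ on the gene's strand.
Mcm6: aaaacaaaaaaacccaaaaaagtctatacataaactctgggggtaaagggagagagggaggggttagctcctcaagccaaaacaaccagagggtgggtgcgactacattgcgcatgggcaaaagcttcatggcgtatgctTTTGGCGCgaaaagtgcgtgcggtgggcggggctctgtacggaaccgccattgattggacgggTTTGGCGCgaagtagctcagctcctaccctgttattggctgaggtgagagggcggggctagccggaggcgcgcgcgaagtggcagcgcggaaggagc
Cdc6: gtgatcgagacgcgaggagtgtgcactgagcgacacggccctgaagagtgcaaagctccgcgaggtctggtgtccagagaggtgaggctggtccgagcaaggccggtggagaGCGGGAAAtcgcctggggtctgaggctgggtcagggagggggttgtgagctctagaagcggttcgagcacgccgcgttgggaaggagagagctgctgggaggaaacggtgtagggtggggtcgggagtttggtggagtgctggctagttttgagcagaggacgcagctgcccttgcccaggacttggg
Pole2: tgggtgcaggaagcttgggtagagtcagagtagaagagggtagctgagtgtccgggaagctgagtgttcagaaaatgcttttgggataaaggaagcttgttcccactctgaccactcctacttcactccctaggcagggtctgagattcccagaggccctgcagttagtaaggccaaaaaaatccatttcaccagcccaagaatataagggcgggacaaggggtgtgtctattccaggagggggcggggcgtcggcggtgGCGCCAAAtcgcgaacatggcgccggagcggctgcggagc
E2f2: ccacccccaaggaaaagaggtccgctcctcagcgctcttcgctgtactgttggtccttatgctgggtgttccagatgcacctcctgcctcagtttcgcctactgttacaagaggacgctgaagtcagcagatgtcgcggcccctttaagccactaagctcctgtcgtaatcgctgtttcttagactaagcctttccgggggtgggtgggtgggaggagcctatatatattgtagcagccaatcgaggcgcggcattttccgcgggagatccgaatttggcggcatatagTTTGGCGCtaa
Pold1: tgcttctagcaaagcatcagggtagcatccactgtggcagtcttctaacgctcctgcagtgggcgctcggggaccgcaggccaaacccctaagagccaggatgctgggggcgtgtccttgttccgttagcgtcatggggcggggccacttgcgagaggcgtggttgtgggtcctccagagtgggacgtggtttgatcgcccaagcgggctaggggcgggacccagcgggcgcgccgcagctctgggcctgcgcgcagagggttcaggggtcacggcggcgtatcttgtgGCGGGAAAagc

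Nearly all origin licensing genes fell. Of the 15, 14 fell, none rose and 1 did not pass, with a median log2 fold change of -0.40. Of all tested genes 30.6% were called lower and 31.8% higher. All 6 subunits of the MCM2-7 ring fell, but by unequal amounts. Mcm5 had 140.6, 148.9 and 140.8 CPM in Spt5-depleted libraries, against 242.2, 241.4 and 261.4 CPM in WT libraries, a log2 fold change of -0.79 ± 0.08 (SE; edgeR adjusted p = 1.22e-06). Mcm6, whose promoter window holds 2 of the marked motifs, had 408.6, 414.7 and 405.6 CPM in Spt5-depleted libraries and 751.3, 647.2 and 709.6 CPM in WT libraries (-0.78 ± 0.09; edgeR adjusted p = 2.22e-06). In both genes the highest depleted library lay well below the lowest WT library. Mcm3 followed at -0.74, Mcm7 at -0.40, Mcm4 at -0.39 and Mcm2 at -0.26. The Mcm2 call was lost without Spt5-depleted replicate 2 (edgeR adjusted p = 0.0539).

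Gmnn, which encodes geminin, the inhibitor that holds Cdt1 in check, showed the largest fall of the licensing group. Its level was 64.9, 67.3 and 60.8 CPM in Spt5-depleted libraries, against 128.4, 114.4 and 109.9 CPM in WT libraries (-0.87 ± 0.09; edgeR adjusted p = 1.23e-06). Cdt1, its target and the loader of MCM, fell by a similar amount (-0.79), so that the count ratio of Gmnn to Cdt1 was 2.07, 2.23 and 1.76 in Spt5-depleted libraries and 2.45, 1.94 and 1.98 in WT libraries. These ratios overlapped between the groups. Cdc6, the loading ATPase, averaged 58.1 ± 3.46 CPM in Spt5-depleted cells and 95.4 ± 7.73 CPM in WT cells (SD, n = 3 each), a log2 fold change of -0.71.

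Within the origin recognition complex, 5 of 6 subunits fell. Orc1, the ATPase subunit whose level oscillates through the cell cycle in mammalian cells, had the largest change of the complex, with a mean of 39.6 ± 1.02 CPM in Spt5-depleted cells and 66.9 ± 4.34 CPM in WT cells (SD, n = 3 each; log2 fold change -0.76). Orc2 and Orc6 changed by -0.39 and -0.36, and Orc5 and Orc4 by -0.26 and -0.22. Orc3 had a log2 fold change of -0.10 (edgeR adjusted p = 0.308), with overlapping libraries. The Orc5 call was lost without Spt5-depleted replicate 3 (edgeR adjusted p = 0.0667), and the Orc4 call was lost when any one of 5 of the 6 libraries was left out (edgeR adjusted p of 0.0624 to 0.153). The rows of Orc3 and Orc4 carry the authors' mark for overlap with another gene, so their counts may include reads of a neighbour.

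The helicase activation genes were split. Of 8, 5 fell, none rose and 3 did not pass (median -0.37), beside 30.6% of all tested genes called lower. Of the 4 subunits of the GINS complex, which works as 1 assembly with Cdc45 and MCM, only Gins1 passed. Gins1 had 12.5, 13.5 and 11.5 CPM in Spt5-depleted libraries and 25.6, 28.2 and 26.8 CPM in WT libraries (-1.10 ± 0.11, SE; edgeR adjusted p = 6.18e-07). Gins4, Gins2 and Gins3 had log2 fold changes of -0.16, -0.08 and 0.10 (edgeR adjusted p = 0.119, 0.453 and 0.482). Whether these differ from Gins1 was not tested. Gins2 also carries the overlap mark. Gins1 and Gins3, at 12.5 and 12.2 CPM in Spt5-depleted cells, were both among the genes with few counts here.

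Cdc45, the helicase cofactor recruited at origin firing, had 62.9, 65.2 and 63.7 CPM in Spt5-depleted libraries and 95.4, 109.0 and 111.5 CPM in WT libraries (-0.72 ± 0.09; edgeR adjusted p = 6.18e-06). Mcm10, which assists helicase activation, had 59.6, 64.4 and 62.8 CPM in Spt5-depleted libraries and 84.3, 89.6 and 102.4 CPM in WT libraries (-0.56 ± 0.09; edgeR adjusted p = 9.89e-05). Neither gene's libraries overlapped between the groups. The kinase gene Cdc7 and its activator Dbf4 changed by -0.49 and -0.25, and the Dbf4 call was lost without Spt5-depleted replicate 1 (edgeR adjusted p = 0.0516). The log2 count ratio of Dbf4 to Cdc7 averaged 3.59 ± 0.18 in Spt5-depleted libraries and 3.35 ± 0.16 in WT libraries (SD, n = 3 each), and the groups overlapped.

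**Figure D3:**
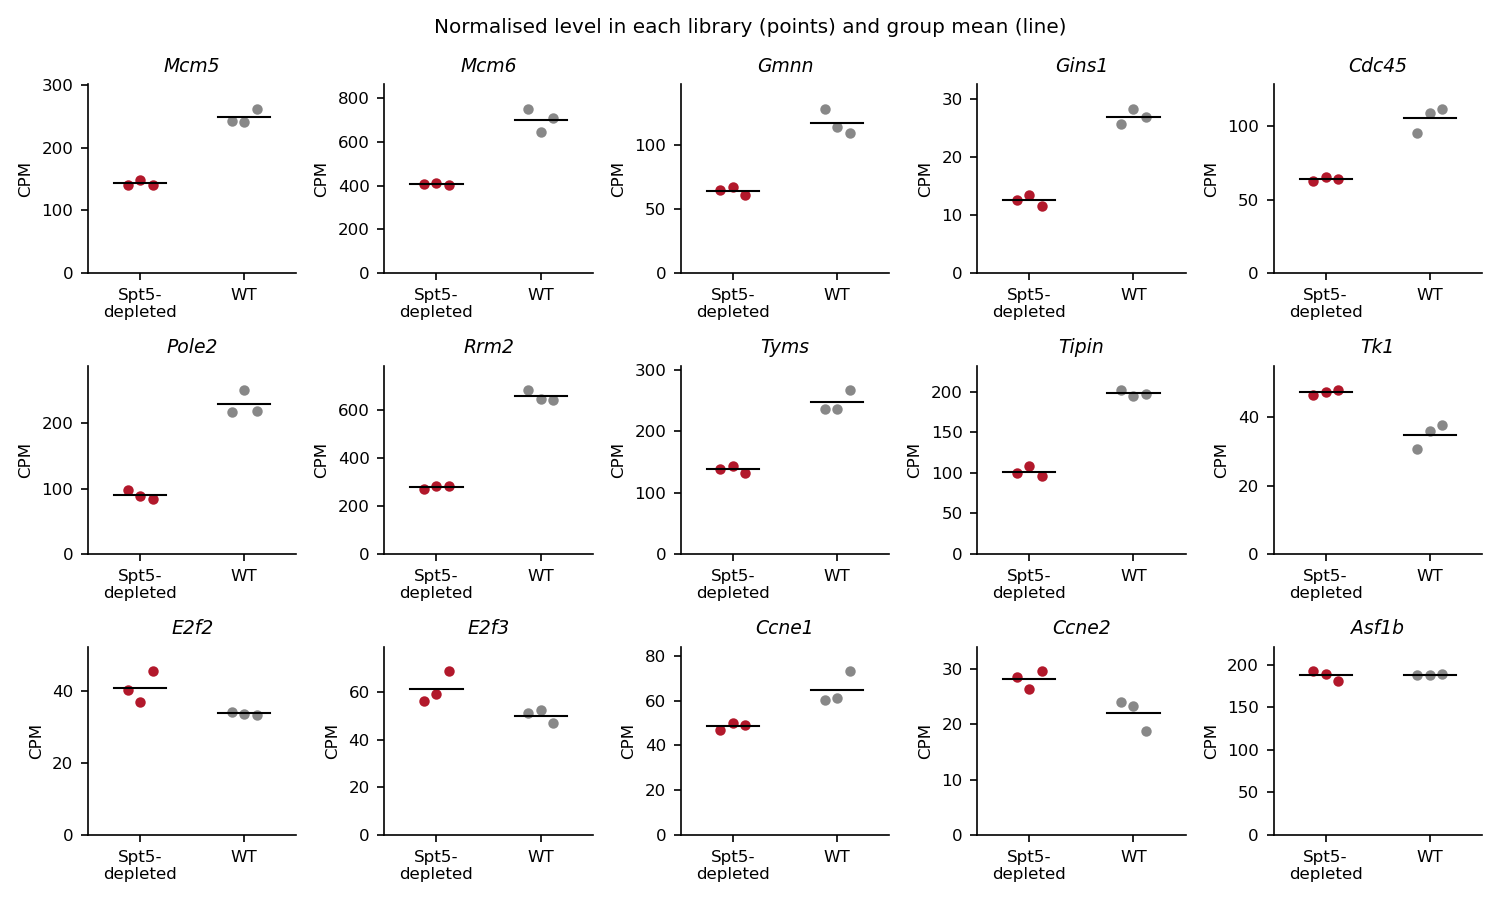
Normalised level (CPM, vertical axis) of 15 replication genes in each of the 3 Spt5-depleted libraries (red points, left) and 3 WT libraries (grey points, right), with the group mean as a line. Gins1, Pole2 and Rrm2 are at less than their WT level in every depleted library, Tk1, E2f2, E2f3 and Ccne2 lie above WT without overlap, and the groups overlap for Asf1b.

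Among the polymerase and primase genes, 6 of 9 fell, none rose and 3 did not pass (median -0.50), beside 30.6% of all tested genes called lower. Each holoenzyme contained at least 1 subunit gene that fell and 1 that did not pass. Pole2, the B subunit of the leading strand polymerase epsilon, showed the largest fall of all 55 genes. It had 97.8, 88.8 and 84.6 CPM in Spt5-depleted libraries, against 218.2, 251.1 and 218.8 CPM in WT libraries, and so fell by 60.6% (log2 fold change -1.34 ± 0.09, SE; edgeR adjusted p = 2.03e-08). The catalytic subunit gene Pole had 110.3, 112.6 and 121.8 CPM in Spt5-depleted libraries and 129.0, 113.7 and 116.6 CPM in WT libraries, which overlapped (-0.06 ± 0.09; edgeR adjusted p = 0.564). Within a library the counts of Pole2 relative to Pole were 0.887, 0.789 and 0.695 in Spt5-depleted cells and 1.69, 2.21 and 1.88 in WT cells. The 2 small histone-fold subunits of this enzyme went the other way: Pole3 had a log2 fold change of 0.45 (edgeR adjusted p = 0.000665) and Pole4, named after its value was seen, one of 0.25 (edgeR adjusted p = 0.0307), whose call was lost without Spt5-depleted replicate 1 or 2 or WT replicate 2 or 3 (edgeR adjusted p of 0.0651 to 0.179).

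Polymerase delta, which copies the lagging strand, was likewise uneven. Pold2, its B subunit, had 59.6, 56.3 and 65.8 CPM in Spt5-depleted libraries and 89.0, 103.4 and 121.5 CPM in WT libraries (-0.79 ± 0.11; edgeR adjusted p = 2.41e-05). Pold3, an accessory subunit, changed by -0.50, whereas the catalytic subunit gene Pold1 had 49.4, 42.0 and 49.8 CPM in Spt5-depleted libraries and 46.2, 37.9 and 49.3 CPM in WT libraries (0.08 ± 0.11; edgeR adjusted p = 0.540). Pold4, the small subunit, rose, with a mean of 110.1 ± 17.1 CPM in Spt5-depleted cells and 65.3 ± 5.42 CPM in WT cells (SD, n = 3 each; log2 fold change 0.75, edgeR adjusted p = 3.53e-05). The rows of Pold1 and Pold2 carry the overlap mark.

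Polymerase alpha and primase together make the RNA-DNA primers. Pola1, the catalytic subunit, had 68.1, 77.0 and 71.1 CPM in Spt5-depleted libraries and 113.2, 97.1 and 104.2 CPM in WT libraries (-0.54 ± 0.09; edgeR adjusted p = 0.000115). This gene is on the X chromosome, the only one of the 55 there. For it, as for all the other genes, the sex difference between the groups cannot be told apart from genotype. Its accessory subunit Pola2 changed by -0.56 and the catalytic primase subunit Prim1 by -0.47. The regulatory primase subunit Prim2 had 72.0, 78.0 and 70.9 CPM in Spt5-depleted libraries and 67.8, 73.3 and 76.0 CPM in WT libraries (0.02 ± 0.09; edgeR adjusted p = 0.819). Prim1 thus fell and Prim2 did not pass, and their count ratio, Prim2 over Prim1, was 0.773, 0.820 and 0.802 in Spt5-depleted libraries and 0.584, 0.526 and 0.595 in WT libraries.

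**Figure D4:**
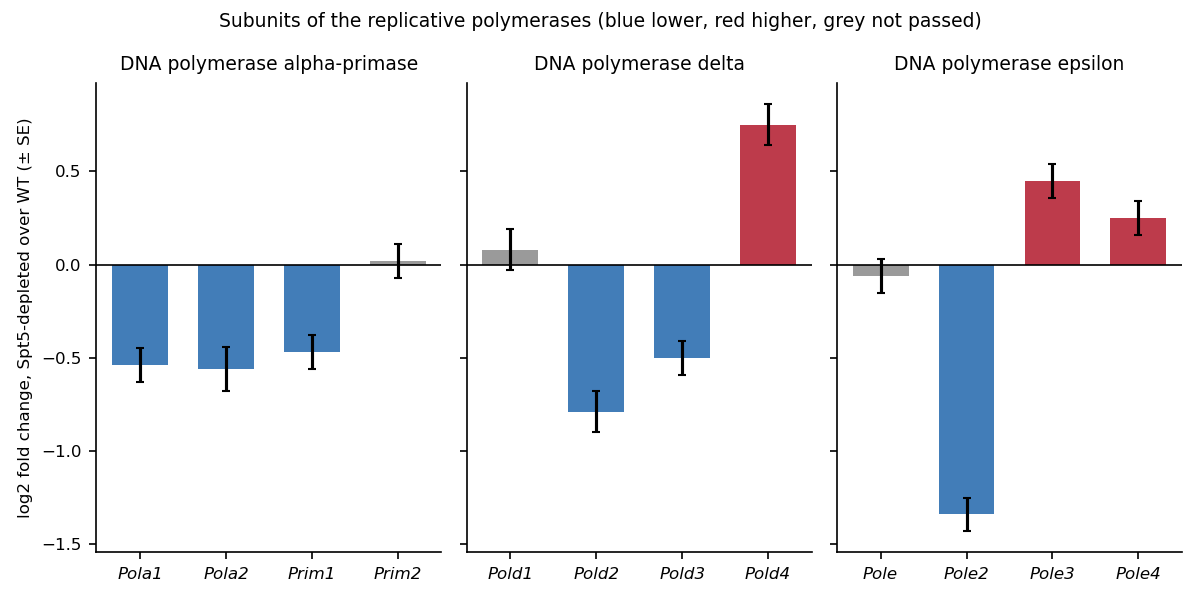
Log2 fold change (Spt5-depleted over WT, vertical axis, with SE) of the subunit genes of polymerase alpha-primase, delta and epsilon; blue bars fell, red bars rose and grey bars did not pass. In delta and epsilon the B subunit gene fell (-0.79 for Pold2, -1.34 for Pole2), the catalytic subunit gene did not pass (0.08 and -0.06), and small subunit genes rose.

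The clamp, clamp loader and lagging strand genes had the smallest median change among the 6 roles that mainly fell, with 5 of 8 lower, none higher, 3 not passed and a median of -0.24. Of all tested genes 30.6% were called lower. Under scaling by library totals 3 of the 8 fell and 1 rose, beside 22.4% and 41.3% of all tested genes. Pcna, the sliding clamp, had 723.1, 724.4 and 628.3 CPM in Spt5-depleted libraries and 870.9, 924.8 and 966.4 CPM in WT libraries (-0.41 ± 0.09, SE; edgeR adjusted p = 0.00106). Lig1, the ligase that seals Okazaki fragments, had 149.9, 148.7 and 159.8 CPM in Spt5-depleted libraries and 229.7, 204.3 and 244.3 CPM in WT libraries (-0.57 ± 0.09; edgeR adjusted p = 6.83e-05). Lig1 carries the overlap mark. Fen1, the nuclease that trims the fragments before ligation, had a log2 fold change of 0.03 (edgeR adjusted p = 0.767), and its difference from Lig1 was not tested.

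Replication factor C, the 5-subunit complex that opens the clamp, had 3 fallen genes. Rfc4 had 54.9, 55.1 and 53.7 CPM in Spt5-depleted libraries and 68.0, 73.7 and 75.1 CPM in WT libraries (-0.41 ± 0.08; edgeR adjusted p = 0.000715), and its row carries the overlap mark. Rfc3 and Rfc1 changed by -0.28 and -0.21, and Rfc2 and Rfc5 had log2 fold changes of -0.05 and 0.07 (edgeR adjusted p = 0.677 and 0.517). The Rfc1 call was weak. Its edgeR adjusted p was 0.0489, and it was lost without Spt5-depleted replicate 1 or 2 or WT replicate 1 or 2, with values of 0.0537 to 0.185. The Rfc3 call was lost without Spt5-depleted replicate 2 (edgeR adjusted p = 0.0993) or WT replicate 3 (0.0678).

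Deoxynucleotide supply showed both one of the largest falls and the largest rise. Of 5 genes, 4 fell and 1 rose, beside 30.6% and 31.8% of all tested genes. Under scaling by library totals 2 of the 5 fell, beside 22.4% of all tested genes. Rrm2, the small subunit of ribonucleotide reductase that makes deoxynucleotides in S phase, had 270.3, 284.5 and 280.9 CPM in Spt5-depleted libraries, against 681.8, 646.7 and 641.5 CPM in WT libraries, and so fell by 57.6% (-1.24 ± 0.08, SE; edgeR adjusted p = 1.29e-08). The large subunit gene Rrm1 averaged 646.5 ± 19.2 CPM in Spt5-depleted cells and 786.9 ± 43.2 CPM in WT cells (SD, n = 3 each; -0.28), and its call was lost without Spt5-depleted replicate 2 (edgeR adjusted p = 0.0526). The count ratio of Rrm2 to Rrm1 was 0.412, 0.456 and 0.427 in Spt5-depleted libraries, below its 0.824, 0.872 and 0.811 in WT libraries. Rrm2b, the alternative small subunit known for its induction by p53, rose (0.50; edgeR adjusted p = 0.00250), though at a mean of only 22.8 CPM in Spt5-depleted cells and 16.1 CPM in WT cells.

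Tyms, the thymidylate synthase, had 138.5, 143.7 and 131.3 CPM in Spt5-depleted libraries and 236.4, 236.8 and 266.9 CPM in WT libraries (-0.84 ± 0.09; edgeR adjusted p = 1.15e-06). The table also has a row for its pseudogene Tyms-ps, at 0.382 CPM in Spt5-depleted cells and 1.34 CPM in WT cells, and reads may be shared between them. Dut, which removes dUTP, had 214.6, 203.4 and 194.8 CPM in Spt5-depleted libraries and 303.2, 231.0 and 256.2 CPM in WT libraries (-0.37 ± 0.10; edgeR adjusted p = 0.00526). Tk1, the cytosolic thymidine kinase of the salvage route, rose instead. It had 46.6, 47.4 and 47.9 CPM in Spt5-depleted libraries, all above the 30.8, 35.8 and 37.8 CPM in WT libraries (0.44 ± 0.10; edgeR adjusted p = 0.00109). The Tk1 row carries the overlap mark. Both routes to thymidylate were thus measured, with the synthesis gene lower and the salvage gene higher.

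Among the E2F and cyclin E genes more rose than fell at this threshold. Of 5 genes, 3 rose, 1 fell and 1 did not pass, with a median log2 fold change of 0.28. Of all tested genes 31.8% were called higher and 30.6% lower, and whether these 5 genes differ from those shares was not tested. E2f2 had 40.4, 37.0 and 45.6 CPM in Spt5-depleted libraries, against 34.3, 33.8 and 33.4 CPM in WT libraries (0.28 ± 0.10, SE; edgeR adjusted p = 0.0229). E2f3 had 56.3, 59.2 and 68.8 CPM in Spt5-depleted libraries and 51.1, 52.3 and 46.9 CPM in WT libraries (0.30 ± 0.10; edgeR adjusted p = 0.0153). In both activator E2F genes, Spt5-depleted replicate 3 was the highest and the groups did not overlap. E2f1, the best known activator, had 20.4, 17.4 and 22.1 CPM in Spt5-depleted libraries and 18.1, 17.0 and 17.9 CPM in WT libraries, which overlapped (0.18 ± 0.11; edgeR adjusted p = 0.185).

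The 2 cyclins E, which activate Cdk2 at the entry into S phase, moved in opposite directions. Ccne1 fell, with 47.0, 50.2 and 49.3 CPM in Spt5-depleted libraries and 60.2, 61.1 and 73.2 CPM in WT libraries (-0.41 ± 0.10; edgeR adjusted p = 0.00185). Ccne2 rose, with 28.6, 26.3 and 29.6 CPM in Spt5-depleted libraries and 24.0, 23.3 and 18.8 CPM in WT libraries (0.35 ± 0.11; edgeR adjusted p = 0.0123), and its row carries the overlap mark. The ratio of Ccne2 to Ccne1 counts was 0.609, 0.524 and 0.599 in Spt5-depleted libraries and 0.400, 0.381 and 0.256 in WT libraries, without overlap. All 3 calls of a rise in this role were lost without Spt5-depleted replicate 3, while the log2 fold changes stayed positive: 0.20 for E2f2 (edgeR adjusted p = 0.120), 0.21 for E2f3 (0.0947) and 0.32 for Ccne2 (0.0570). Tk1 was then the only one of the 55 genes still called higher. E2f2 also lost its call without Spt5-depleted replicate 1 (edgeR adjusted p = 0.0527) or WT replicate 2 (0.0553).

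The fork protection and chromatin assembly genes fell in 4 of 5 cases (median -0.45), beside 30.6% of all tested genes called lower. Tipin and Timeless, whose proteins form the complex that steadies stalled forks, fell nearly equally. Tipin had 100.1, 108.1 and 95.8 CPM in Spt5-depleted libraries and 202.0, 194.4 and 197.5 CPM in WT libraries (-0.97 ± 0.08, SE; edgeR adjusted p = 2.05e-07). Timeless had 14.2, 14.7 and 15.6 CPM in Spt5-depleted libraries and 29.6, 27.0 and 28.8 CPM in WT libraries (-0.94 ± 0.10; edgeR adjusted p = 1.64e-06). Their count ratio, Tipin over Timeless, was 7.06, 7.35 and 6.15 in Spt5-depleted libraries and 6.81, 7.20 and 6.85 in WT libraries, which overlapped.

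Chaf1a, the large subunit of the histone chaperone CAF-1 that deposits new histones behind the fork, had 44.6, 50.3 and 47.9 CPM in Spt5-depleted libraries and 67.0, 59.1 and 69.4 CPM in WT libraries (-0.45 ± 0.09; edgeR adjusted p = 0.000675). Its partner Chaf1b changed by -0.34, and that call was lost without Spt5-depleted replicate 1 (edgeR adjusted p = 0.0516). Asf1b, which hands histones to CAF-1, had 192.5, 189.2 and 180.9 CPM in Spt5-depleted libraries and 187.5, 187.7 and 188.8 CPM in WT libraries, with a log2 fold change of 0.00 ± 0.08 (edgeR adjusted p = 0.970). Its paralog Asf1a rose (0.43; edgeR adjusted p = 0.000371).

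Ratios of partner genes within a library do not move with the scaling between libraries, and 11 pairs were compared by an exact two-sided permutation test over the libraries. With 3 libraries a group the smallest p this allows is 0.10, so no pair could pass 0.05. Rrm2/Rrm1, Pole2/Pole, Prim2/Prim1 and Ccne2/Ccne1 reached that smallest p, with no overlap between the groups (exact permutation p = 0.10, adjusted over the 11 pairs to 0.275). The difference of mean log2 ratios, Spt5-depleted minus WT, was -0.95 for Rrm2/Rrm1 (-1.21 ± 0.074 in Spt5-depleted and -0.26 ± 0.055 in WT libraries, SD, n = 3 each) and -1.28 for Pole2/Pole (-0.35 ± 0.18 and 0.94 ± 0.19). It was 0.49 for Prim2/Prim1 and 0.76 for Ccne2/Ccne1. The other 7 pairs overlapped between the groups, with differences of -0.07 to 0.24.

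**Figure D5:**
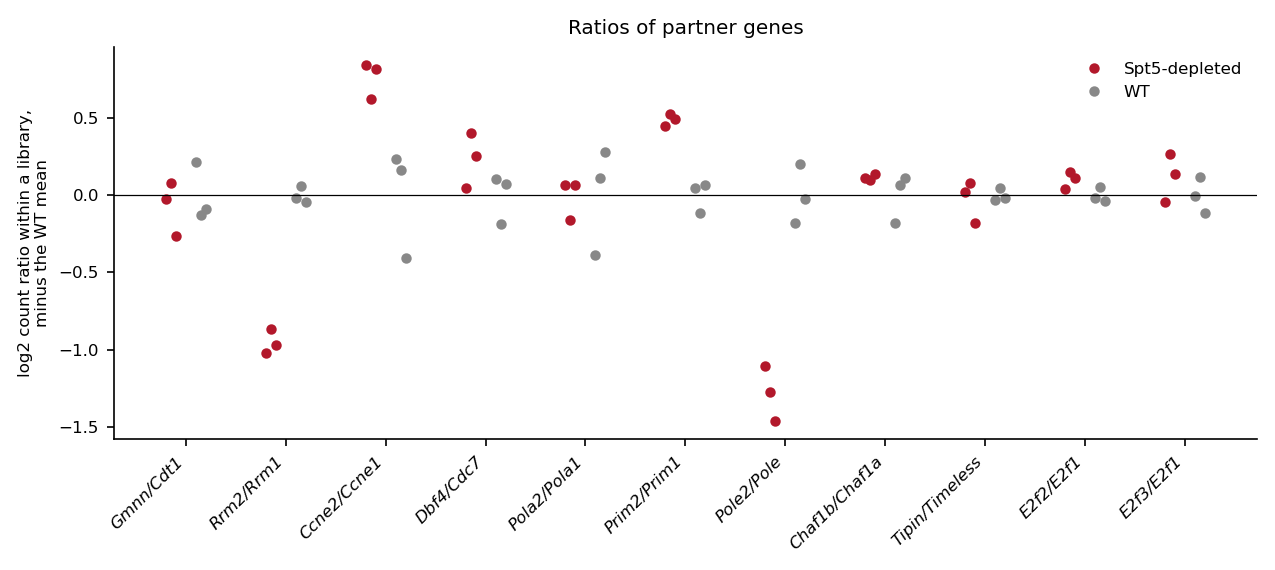
Log2 ratio of the counts of 2 partner genes within each library, minus the mean of the WT libraries (vertical axis), for 11 pairs, with Spt5-depleted libraries as red points on the left and WT libraries as grey points on the right of each pair. Rrm2/Rrm1 and Pole2/Pole lie below WT and Ccne2/Ccne1 and Prim2/Prim1 above it without overlap.

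Other genes of the pathway changed less uniformly. Of 78 genes in 7 related lists, 34 fell (43.6%, beside 30.6% of all tested genes) and 21 rose (26.9%, beside 31.8%), with a median of -0.18. Under scaling by library totals 22 fell (28.2%, beside 22.4% of all tested genes) and 28 rose (35.9%, beside 41.3%). Topoisomerase and replication-coupled chromatin genes fell in 7 of 9 cases, led by Top2a, which untangles copied chromosomes (-1.15), and the chromatin remodeller gene Hells (-0.88). Of 7 single-strand binding and RNase H2 genes, 4 fell, among them Rnaseh2b (-0.84) and the nuclease gene Dna2 (-0.70), and 1 rose, Rpa3, the smallest subunit of the single-strand binding protein RPA (0.47). Other fork and origin factors were divided, with 8 of 18 lower and 7 higher, beside 30.6% and 31.8% of all tested genes. Dscc1, part of an alternative clamp loader, fell to 6.33 ± 0.431 CPM in Spt5-depleted cells, against 15.9 ± 1.01 CPM in WT cells (SD, n = 3 each; -1.33), and Topbp1, a scaffold for origin firing and checkpoint signalling, changed by -0.79.

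Of 11 replication checkpoint genes, 4 fell and 2 rose, and the share that fell was near the 30.6% of all tested genes. Clspn, which encodes claspin, the Chek1 adaptor, changed by -0.78 and the phosphatase gene Cdc25a, which removes the inhibitory phosphate from Cdk2, by -0.51. Wee1, the kinase that places an inhibitory phosphate on Cdk1 and Cdk2, had 109.0, 107.7 and 106.2 CPM in Spt5-depleted libraries, against 43.4, 40.6 and 39.3 CPM in WT libraries. That was the largest rise among the 78 related genes (log2 fold change 1.39 ± 0.08, SE; edgeR adjusted p = 6.02e-09). Rad9a, of the checkpoint clamp, rose by 0.43 on the log2 scale. The rows of Clspn, Cdc25a and Rad9a carry the overlap mark.

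Of 12 other E2F, DP and RB genes, 3 fell and 4 rose, shares near those of all tested genes (30.6% and 31.8%). E2f7, an atypical E2F that represses transcription, had 24.5, 28.6 and 32.3 CPM in Spt5-depleted libraries, above the 13.9, 15.3 and 16.5 CPM in WT libraries (0.91 ± 0.12; edgeR adjusted p = 1.21e-05). Rb1, the retinoblastoma protein gene, rose too (0.57), while E2f4, mostly a repressor in resting cells, changed by -0.62 and the S phase cyclin gene Ccna2 by -0.30 (-0.14 and edgeR adjusted p = 0.129 under scaling by library totals). The Ccna2 row carries the overlap mark.

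Of 12 further nucleotide supply genes, 5 fell and 3 rose, beside 30.6% and 31.8% of all tested genes. Dctd, which feeds thymidylate synthesis, was among those that fell (-0.79), and the mitochondrial thymidine kinase gene Tk2 led those that rose (0.87). Of 9 licensing turnover genes, 3 fell and 3 rose, again near the shares of all tested genes, with Fbxo31 at -1.11 and Cul1 at -0.38 against Skp1a at 0.48 and Cul4a at 0.41. These encode parts of ubiquitin ligases. The Cul4a row carries the overlap mark. For comparison, of 28 mitosis genes 17 were lower and 2 higher, beside 30.6% and 31.8% of all tested genes. Their median was -0.33, near the -0.39 of the 55 replication genes, so the lower median was not particular to replication genes. Those that fell included the centromeric histone gene Cenpa (-0.92) and the kinase gene Aurkb (-0.68). The 2 that rose were Foxm1, a transcription factor of the late cell cycle (0.59), and the mitotic kinesin gene Kif20a (0.27), and both rows carry the overlap mark. The Kif20a call was lost without Spt5-depleted replicate 1 (edgeR adjusted p = 0.0912).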

How the data were processed

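Polyadenylated RNA of 3 Spt5-depleted and 3 WT libraries was measured; the other assays of the series were not analysed here. The deposited table holds whole-number counts per gene, made by the authors with cutadapt 1.10, Bowtie2 2.1.0, TopHat, featureCounts 1.5.0-p1 and build mm9, per the submitters' processing notes; it also holds the authors' log2 fold changes and adjusted p-values, with DESeq2 1.10.1 named in the same notes. Gene names end in a mark for overlapping genes in 2005 of 14106 rows, and every row has a summed count of at least 10. Columns named KO were matched to the Spt5-depleted libraries by number.

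Genes kept by filterByExpr (12024) were tested with edgeR 4.0.16 (R 4.3.3; TMM, robust quasi-likelihood F test, two-sided, Benjamini-Hochberg over all tested genes, threshold 0.05), without covariates. The SE was taken from the F statistic. CPM values use TMM-scaled totals, and exact permutation tests used scipy 1.17.1 with 0.5 added to each count. The edgeR fit alone was tried on simulated counts. Alternatives used DESeq2 1.42.0, limma 3.58.1 (voom), other scalings, filters and thresholds, a replicate block and leaving out each library. The genes and lists were chosen with earlier results of these data known. In each role up to 3 fallen and 3 risen genes with the smallest adjusted p were given per library, and of each related list up to 2 in each direction were named; other genes given per library were chosen after their values were seen. Some genes that this rule would name are not reported here. Depth was 17306549 to 25649611 counts per library, and replicate pairs of 1 group differed by more than counting noise (chi-square per degree of freedom 6.13 to 31.2). RefSeq promoter windows (GRCm38.p6) were used for letters alone and were not joined to mm9 coordinates.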

Additional observations from a re-analysis of the deposited data

How the results depend on the processing

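Counts of the 55 genes that fell and rose were 39 and 4 with DESeq2 size factors, DESeq2's Wald test, limma-voom or no filter, and 38 and 4 with upper-quartile factors or a mean of at least 5 CPM. Same-numbered libraries showed no shared deviation from their group means (correlations 0.0384, -0.0403 and -0.00504), which cannot tell whether they were prepared in pairs. With the number as a replicate block 37 fell and 4 rose, and Orc4 and Rfc1 lost their calls (edgeR adjusted p = 0.0586 and 0.0848). Leaving out each library in turn gave 34 to 38 lower and 1 to 4 higher among the 55. These runs called 3281 to 3678 of all tested genes lower and 3431 to 3784 higher. They gave 3 to 5 lower among clamp genes, 0 to 3 higher among E2F and cyclin E genes and 1 to 3 higher among mitosis genes. At an adjusted p under 0.01, 32 of the 55 fell and 1 rose, beside 2919 and 3040 of the 12024 tested genes. At that threshold 3 clamp genes fell, 0 E2F and cyclin E genes rose and 1 mitosis gene rose.

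With a fold change of at least 2 also required, 917 of the 12024 tested genes fell and 1187 rose. Of the 55, 3 fell (Pole2, Rrm2 and Gins1) and 0 rose, smaller shares than those of all tested genes. The excess of fallen genes among the 55 was thus not seen at this threshold. By role, 1 helicase activation, 1 polymerase and 1 nucleotide supply gene fell and 0 of the other roles. Of the related genes 3 fell and 1 rose, with 0 mitosis genes in either direction. Scaling by library totals left 3 clamp genes lower and 1 higher, 2 nucleotide supply genes lower, 22 related genes lower and 4 mitosis genes higher.

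Among the 55 genes and under these alternatives, signs turned only in genes that had not passed. By library totals the log2 fold changes were 0.06 for Orc3, 0.08 for Gins2, 0.10 for Pole, 0.11 for Rfc2 and 0.15 for Asf1b; Asf1b was 0.01 with upper-quartile factors and with the 5 CPM filter. Leaving out 1 library gave -0.03 to 0.06 for Prim2, -0.03 to 0.16 for Pold1, -0.10 to 0.03 for Rfc2, -0.04 to 0.08 for Fen1 and -0.02 to 0.03 for Asf1b. Over the alternatives run, the difference of mean log2 ratios was -1.37 to -1.18 for Pole2/Pole, -0.99 to -0.92 for Rrm2/Rrm1, 0.44 to 0.52 for Prim2/Prim1 and 0.56 to 0.88 for Ccne2/Ccne1. The cause of these changes was not tested. With 3 libraries a group, small fold changes are at the limit of what this test separates.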
